A study of Homo sapiens with 6 samples.

Results

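The IGF binding protein genes IGFBP1 to IGFBP7 and the RNA-binding protein genes IGF2BP1, IGF2BP2 and IGF2BP3 were followed in U87 cells, an established human glioblastoma line, after silencing of Caspase-8. These 10 genes were taken by symbol from the 23290 gene rows of the deposited table, and all 10 had a row. The shC8 libraries (3) came from U87 cells infected with a retroviral shC8 vector against Caspase-8, the protease that starts the death receptor pathway. The shCTR libraries (3) came from U87 cells infected with a retroviral scramble vector, so both groups carried a retroviral vector and both were grown in DMEM with serum. The hairpin sequence is not given in the sources used here, and all libraries came from 1 cell line.

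The 7 IGFBPs are secreted proteins that bind the insulin-like growth factors IGF1 and IGF2 in the extracellular space. They hold the ligands away from the receptor IGF1R or carry them to it, and proteases such as pappalysin release the ligand by cutting the binding protein. Several IGFBPs also act on cells without IGF, and IGFBP2, IGFBP3 and IGFBP5 are often studied in glioma. The 3 IGF2BPs share a similar name and little else with the IGFBPs. They are cytoplasmic RNA-binding proteins, named for binding to IGF2 mRNA, that stabilise target transcripts and read the RNA modification m6A. They are high in the embryo and in many tumours, and their mRNAs are known targets of the let-7 microRNAs.

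CASP8 was lower in every library labelled shC8, with 4.39, 4.46 and 4.44 FPKM in shC8 1, 2 and 3, against 15.1, 14.9 and 13.4 FPKM in shCTR 1, 2 and 3 (FPKM, fragments scaled by transcript length and by the library's mapped fragments). The mean of 4.43 FPKM in shC8 was 30.6% of the shCTR mean. On the log2(FPKM + 1) scale CASP8 fell by 1.51 (SE 0.0705), with an adjusted p of 0.000206 by limma, and the exact two-sided permutation test gave p = 0.1, the smallest value that 3 against 3 libraries allow. FPKM columns summed to between 489055 and 516634, and the depth in reads is unknown. Vimentin (VIM) and CD44 were abundant, as known for U87, while the astrocyte genes GFAP, S100B and AQP4 stayed at or under 0.297 FPKM in every library. Of the markers of other cell types, PTPRC, CD3E, PECAM1, VWF and ALB were at or under 0.195 FPKM in every library, while CD68, SNAP25 and LUM reached 157, 18.8 and 7.91 FPKM. Each column name ends in a number of unstated meaning, and these numbers form a lower range (shC8 1, shCTR 1 and shCTR 3) and an upper range (shC8 2, shC8 3 and shCTR 2), so that shC8 has 2 libraries in the upper range and shCTR has 1.

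The members spanned 4 orders of magnitude in level. FPKM is per transcript length, so levels of different genes can be set side by side. In shC8 the order of mean FPKM was IGFBP6 (276), IGFBP3 (222), IGFBP7 (88.5), IGF2BP3 (81.1), IGFBP1 (21.9), IGFBP4 (17.8), IGF2BP2 (9.82), IGFBP2 (2.81), IGFBP5 (0.379) and IGF2BP1 (0.0205). In shCTR it was IGFBP6 (210), IGFBP7 (73.6), IGFBP3 (72.4), IGF2BP3 (71.0), IGFBP1 (20.7), IGF2BP2 (16.5), IGFBP4 (13.5), IGFBP2 (1.80), IGFBP5 (0.126) and IGF2BP1 (0.019). Neighbours in the order whose libraries overlapped in shC8 were IGFBP6 with IGFBP3, IGFBP3 with IGFBP7, IGFBP7 with IGF2BP3, and IGFBP1 with IGFBP4. In shCTR they were IGFBP7 with IGFBP3, IGFBP3 with IGF2BP3, IGFBP1 with IGF2BP2, and IGF2BP2 with IGFBP4. IGFBP5 and IGF2BP1 had a mean under 1 FPKM and were left out of the test, so 8 of the 10 members were tested.

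**Figure D1:**
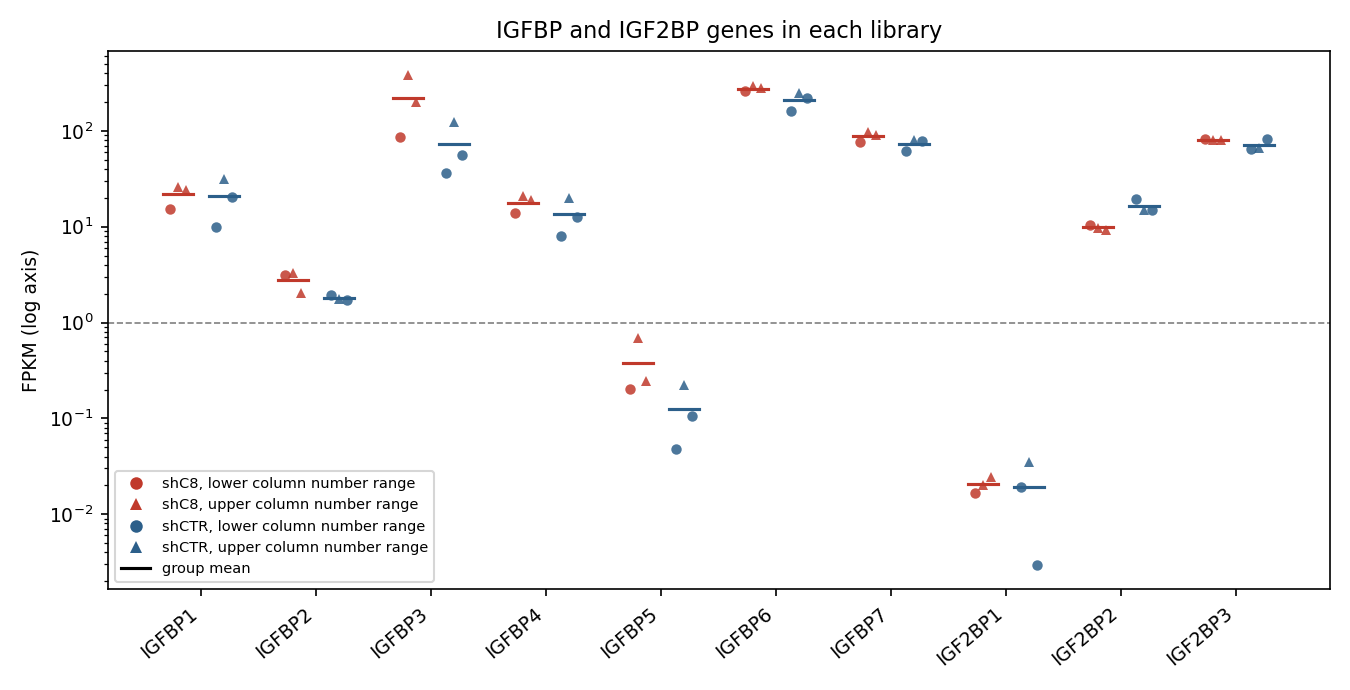
FPKM (log axis) of each IGFBP and IGF2BP gene in the 3 shC8 libraries (red, left) and the 3 shCTR libraries (blue, right). Circles mark libraries of the lower and triangles those of the upper column number range, short bars are group means, and the dashed line is the minimum mean of 1 FPKM for testing. IGFBP1, IGFBP3, IGFBP4 and IGFBP5 stand higher in the upper range in both groups, and IGFBP6 and IGFBP7 do so less. The libraries of IGFBP2, IGFBP6 and IGF2BP2 separate by group.

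Among the tested members, IGF2BP2 fell in shC8 and the other 7 did not pass. This is 1 of 8 members, where 12.1% of all 11598 tested genes were called, 7.14% higher and 4.94% lower (limma on log2(FPKM + 1), Benjamini-Hochberg adjusted p under 0.05). The groups did not overlap for 3 of the 8, IGFBP2, IGFBP6 and IGF2BP2, and for 34.8% of all tested genes. Both shares are close to the background. When same-numbered libraries of the groups were compared with each other (replicate number as a block), 6 of the 8 were called, 5 higher (IGFBP2, IGFBP3, IGFBP4, IGFBP6 and IGFBP7) and 1 lower (IGF2BP2), where 26.6% of all tested genes were called in that fit, 16.1% higher and 10.6% lower. No label pairs these libraries. The pairing was read from the same values, so the calls with the block depend on that reading. With a term for the column number range, 1 of 8 was called, IGF2BP2, where 10.7% of all tested genes were called.

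**Figure D2:**
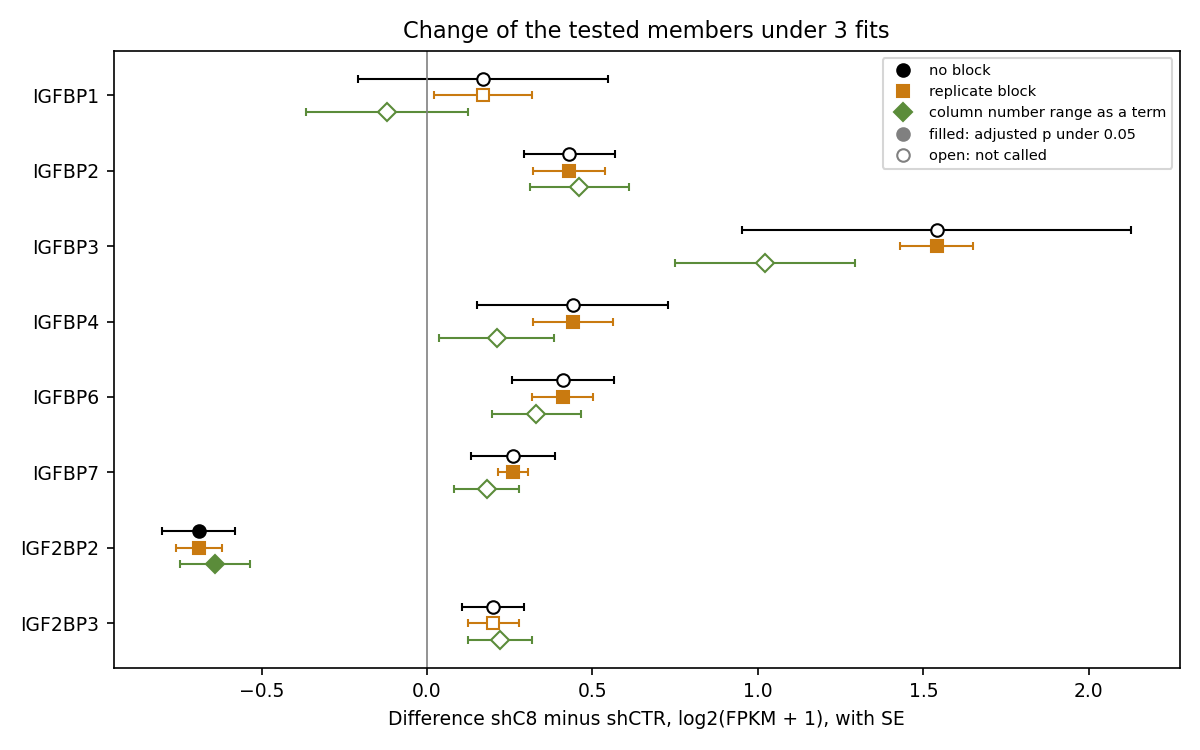
Difference of shC8 minus shCTR on the log2(FPKM + 1) scale with its SE for the 8 tested members in the fit without a block (black), with the replicate block (orange) and with a term for the column number range (green). Filled symbols have a limma adjusted p under 0.05. IGF2BP2 is filled in all 3 fits, at -0.69, -0.69 and -0.64, and 5 IGFBPs are filled with the replicate block alone. The pairing behind the block was read from these data.

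IGF2BP2 encodes an RNA-binding protein that is known for supporting mitochondrial metabolism in glioblastoma stem cells. The gene (ENSG00000073792) lies on the minus strand of chromosome 3, from 185643739 to 185825056 of GRCh38. It had 10.4, 9.67 and 9.35 FPKM in shC8 1, 2 and 3, against 19.6, 15.0 and 15.0 FPKM in shCTR 1, 2 and 3. Every shC8 library was below every shCTR library, and shCTR 1 was the highest. The means were 9.82 ± 0.561 FPKM in shC8 and 16.5 ± 2.65 FPKM in shCTR (SD, n = 3 each), a level 1.68-fold lower in shC8. This is a log2(FPKM + 1) difference of -0.69 (SE 0.11, adjusted p = 0.011 by limma). The difference was -0.66 between libraries of the lower column number range and -0.61 between those of the upper, and the call held in each of the 6 fits without 1 library. In bulk RNA, fewer cells that express a gene and less RNA per cell cannot be told apart. Its antisense gene IGF2BP2-AS1 (C3orf65 in the table) was listed at 0 in 5 libraries and at 0.0105 FPKM in shCTR 2.

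The longest annotated 3′ UTR of IGF2BP2 (1792 bases, GENCODE 29) holds both of the words searched on the transcript strand. The first is GGACAAA, chosen after the values were seen, which was more frequent in the 3′ UTRs of genes called lower in shC8. The split by this word rests on the same calls, IGF2BP2 included, so it is not independent of that choice. Of the 10108 tested genes with a searched 3′ UTR, 1223 held GGACAAA and 8885 did not. Of those with it 14% were called lower and 4.74% higher, and of those without it 3.94% and 7.78%. The median log2 changes were -0.0409 with it and 0.0466 without it. The length of the 3′ UTRs was not taken into account. The same word occurs in 10 of 15 protein-coding CASP8 transcripts, searched over their whole length, and not in the longest CASP8 3′ UTR. The share of all protein-coding transcripts that hold GGACAAA was not computed, so the CASP8 count has no background beside it. The second is CTACCTC, the match to the let-7 seed. Of the 1140 tested genes with CTACCTC, 4.65% were called lower, against 5.22% of the 8968 without it. Only 1 isoform was read for a gene, so genes that carry a word in another isoform may count as without it. The split by CTACCTC therefore cannot decide whether let-7 sites went with lower calls. Of the members, IGF2BP1 (6206 bases of 3′ UTR) holds GGACAAA 1 time and CTACCTC 4 times, IGF2BP3 (2153 bases) holds CTACCTC 1 time and no GGACAAA, and none of the 7 IGFBPs holds either word. The part of either word in the fall of IGF2BP2 was not tested. The sites are shown with 10 bases of context on each side, read from GENCODE 29 transcripts on GRCh38, to show where IGF2BP2, the member that fell, and its paralogs hold each word. Capitals mark the word, and in let-7a-5p (RefSeq, GRCh38.p14, chr9:94175962-94175983, plus strand) they mark the seed, bases 2 to 8.
IGF2BP2 with GGACAAA, chr3:185643995-185644021, minus strand: gccttcttttGGACAAAccttgaaaat
IGF2BP2 with CTACCTC, chr3:185644211-185644237, minus strand: acagaagaagCTACCTCaggtgttttt
IGF2BP3 with CTACCTC, chr7:23311786-23311812, minus strand: ttttactcaaCTACCTCaggtattcag
IGF2BP1 with GGACAAA, chr17:49054247-49054273, plus strand: gactccggatGGACAAAagaaaaaaaa
IGF2BP1 with CTACCTC, chr17:49051066-49051092, plus strand: gcgaagtaaaCTACCTCaaggtatgaa
IGF2BP1 with CTACCTC, chr17:49053703-49053729, plus strand: gtgctagtaaCTACCTCacagagcccc
IGF2BP1 with CTACCTC, chr17:49054357-49054383, plus strand: aatggattaaCTACCTCaatccttaca
IGF2BP1 with CTACCTC, chr17:49055002-49055028, plus strand: tttgttttatCTACCTCttagcaaaac
hsa-let-7a-5p: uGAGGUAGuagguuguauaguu

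IGF2BP3, which stabilises transcripts such as CD44 and is a marker of aggressive gliomas, was the most abundant IGF2BP. Its gene (ENSG00000136231) lies on the minus strand of chromosome 7, from 23310209 to 23470467, and overlaps MALSU1 on the plus strand. It had 82.5, 80.1 and 80.7 FPKM in shC8 1, 2 and 3, against 64.7, 66.4 and 81.8 FPKM in shCTR 1, 2 and 3. The groups overlapped, with shCTR 3 as high as the shC8 libraries. The log2 change of 0.20 (SE 0.0938) did not pass (limma adjusted p = 0.208), and without shCTR 3 it was 0.30 (limma adjusted p = 0.0488). The other fits without 1 library did not pass (limma adjusted p up to 0.458). IGF2BP3 stood at 8.27 ± 0.366 times the FPKM of IGF2BP2 in shC8 and at 4.4 ± 1.08 times in shCTR (SD, n = 3 each), with 7.89, 8.28 and 8.63 in shC8 1, 2 and 3 and 3.30, 4.43 and 5.46 in shCTR 1, 2 and 3. IGF2BP1, the third paralog, lay between 0.0167 and 0.0247 FPKM in shC8 and between 0.00295 and 0.0349 FPKM in shCTR, near 0 in both groups.

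IGFBP3, the main carrier of IGFs in serum and a gene that TGF-beta, p53 and hypoxia induce, had the largest difference between groups and the widest spread over its libraries among the 8 tested members. The gene (ENSG00000146674) lies on the minus strand of chromosome 7, from 45912245 to 45921874. It had 85.9, 381 and 200 FPKM in shC8 1, 2 and 3, against 36.5, 124 and 56.6 FPKM in shCTR 1, 2 and 3. The groups overlapped, since shC8 1 was below shCTR 2. The highest library stood 4.44-fold above the lowest within shC8 and 3.41-fold within shCTR, beside a ratio of group means of 3.07. Each shC8 library was nevertheless above the shCTR library of the same number, by 2.36-fold, 3.07-fold and 3.52-fold for numbers 1, 2 and 3. For number 3 the shC8 library is in the upper column number range and the shCTR library in the lower. Group and range therefore cannot be told apart in the 3.52-fold. The log2 change of 1.54 did not pass without the block (SE 0.588, limma adjusted p = 0.13) and passed with it (SE 0.11, limma adjusted p = 0.00123). The change was 0.90 among libraries of the lower range and 1.15 among those of the upper, and 1.02 with a term for the range (limma adjusted p = 0.0597). Without shC8 1 it was 2.10 (limma adjusted p = 0.0488). The other fits without 1 library did not pass (limma adjusted p up to 0.318), with 1.03 without shC8 2 and 1.15 without shCTR 1.

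IGFBP6, which prefers IGF2 over IGF1, was the most abundant member in both groups. The gene (ENSG00000167779) is on chromosome 12, plus strand, from 53097436 to 53102345. It had 258, 291 and 280 FPKM in shC8 1, 2 and 3, against 160, 248 and 223 FPKM in shCTR 1, 2 and 3. All shC8 libraries were above all shCTR libraries, with shCTR 1 far below the other 2 of its group. The log2 change was 0.41 (SE 0.154, limma adjusted p = 0.122), and with the replicate block the limma adjusted p was 0.0249. Within the lower range it was 0.45 and within the upper range 0.20, and without shCTR 1 it was 0.23 (limma adjusted p = 0.186).

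IGFBP7, a low-affinity IGF binder that is deposited in tumour vessels, differed less. The gene (ENSG00000163453) lies on the minus strand of chromosome 4, from 57030773 to 57110385, and overlaps POLR2B and IGFBP7-AS1 on the plus strand. Its FPKM was 76.1, 98.1 and 91.4 in shC8 1, 2 and 3, against 62.3, 80.4 and 78.2 in shCTR 1, 2 and 3. The groups overlapped, while each same-numbered pair differed by nearly the same factor, 1.22, 1.22 and 1.17. Its log2 change of 0.26 had an SE of 0.127 without the block (limma adjusted p = 0.211) and of 0.0444 with it (limma adjusted p = 0.011). Without shCTR 1 the change was 0.149 (limma adjusted p = 0.479).

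IGFBP4 and IGFBP1 varied more among the shCTR libraries than between the groups. IGFBP4, a substrate of pappalysin (ENSG00000141753, plus strand of chromosome 17, 40443461 to 40457731), had 13.8, 20.9 and 18.8 FPKM in shC8 1, 2 and 3, against 8.01, 19.8 and 12.6 FPKM in shCTR 1, 2 and 3. Its log2 change of 0.44 (SE 0.288, limma adjusted p = 0.346) was called with the replicate block (limma adjusted p = 0.0453), yet it was 0.41 within the lower range and 0.00 within the upper. It was 0.141 without shCTR 1 (limma adjusted p = 0.752) and 0.743 without shCTR 2 (limma adjusted p = 0.101). IGFBP1, known in liver for its response to insulin and in other cells for its response to hypoxia and stress (ENSG00000146678, plus strand of chromosome 7, 45888357 to 45893668), had 15.2, 26.2 and 24.2 FPKM in shC8 1, 2 and 3, against 10.0, 31.8 and 20.4 FPKM in shCTR 1, 2 and 3. Here the highest and the lowest of the 6 libraries were both shCTR libraries. The change of 0.17 (SE 0.378, limma adjusted p = 0.797) was not called in any fit, and it was -0.12 with a term for the range and -0.25 without shCTR 1.

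IGFBP2, a glioma-associated binding protein with an integrin-binding motif, was low in these cells. The gene (ENSG00000115457) is on chromosome 2, plus strand, from 216632828 to 216664436. It had 3.11, 3.28 and 2.05 FPKM in shC8 1, 2 and 3, against 1.92, 1.77 and 1.71 FPKM in shCTR 1, 2 and 3. The groups did not overlap, although shC8 3 was close to shCTR 1. The means were 2.81 ± 0.666 FPKM in shC8 and 1.80 ± 0.108 FPKM in shCTR (SD, n = 3 each). The log2 change of 0.43 (SE 0.138, limma adjusted p = 0.0853), which the added 1 FPKM makes smaller at such levels, was called with the replicate block (limma adjusted p = 0.0365) and without shC8 3 (0.58, limma adjusted p = 0.0332). IGFBP2 was not called in the other fits without 1 library (limma adjusted p up to 0.222). IGFBP5, a matrix-bound member (minus strand of chromosome 2, 216672105 to 216695525), had 0.202, 0.689 and 0.247 FPKM in shC8 1, 2 and 3, against 0.0476, 0.224 and 0.105 FPKM in shCTR 1, 2 and 3. Each same-numbered pair was higher in shC8, at levels under 1 FPKM, and without the filter its change on the log2(FPKM + 1) scale was 0.28 (limma adjusted p = 0.305). In that fit 1 of 10 members, IGF2BP2, and 5.23% of 18724 genes were called.

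Most IGFBPs varied across libraries in a like way. Of the 8 tested members, 4 were highest in shC8 2 and lowest in shCTR 1, namely IGFBP3, IGFBP4, IGFBP6 and IGFBP7. The untested IGFBP5 shared this pattern, which 7.54% of all tested genes had. The pattern was picked after the members' values were seen, so these shares are not a test. IGFBP1 was likewise lowest in shCTR 1, and highest in shCTR 2. Within shC8 the mean of the upper range was 3.38 times that of the lower for IGFBP3, 2.31 times for IGFBP5, 1.66 times for IGFBP1 and 1.44 times for IGFBP4. Within shCTR these ratios were 2.67, 2.93, 2.09 and 1.91. They were nearer to 1 for IGFBP6 (1.11 in shC8 and 1.29 in shCTR), IGFBP7 (1.25 and 1.14), IGFBP2 (0.858 and 0.976), IGF2BP2 (0.911 and 0.868) and IGF2BP3 (0.975 and 0.906). Of the closest neighbours in the genome, IGFBP2 and IGFBP5, 7668 bases apart on chromosome 2, differed in this ratio, whereas IGFBP1 and IGFBP3, 18576 bases apart on chromosome 7, both stood higher in the upper range; in each case no annotated gene lies between them. Of the 3 fibroblast markers, LUM had 2.52, 7.91 and 4.96 FPKM in shC8 1, 2 and 3, against 3.34, 5.31 and 2.42 FPKM in shCTR 1, 2 and 3, so it too was highest in shC8 2 and higher in the upper range within each group. PDGFRA was at most 1.27 FPKM, in shC8 2, with means of 0.887 FPKM in shC8 and 0.573 FPKM in shCTR. DCN went the other way between groups, at most 0.542 FPKM, in shCTR 2, with means of 0.328 FPKM in shC8 and 0.449 FPKM in shCTR. The 3 summed to between 3.32 and 9.49 FPKM in shC8 and between 3.24 and 6.54 FPKM in shCTR, and their part in the IGFBP differences was not tested.

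As a pool, the IGFBP transcripts summed to 453, 821 and 617 FPKM in shC8 1, 2 and 3, against 279, 506 and 393 FPKM in shCTR 1, 2 and 3. The means were 630 ± 185 FPKM in shC8 and 393 ± 114 FPKM in shCTR (SD, n = 3 each), a ratio of 1.60 with groups that overlapped. Each shC8 library was above the shCTR library of the same number, by 1.62-fold, 1.62-fold and 1.57-fold for numbers 1, 2 and 3. The libraries numbered 3 lie in different column number ranges. Without IGFBP3 the ratio was 1.27. The difference of the summed means was 237 FPKM, and 142 FPKM without shC8 2. IGFBP6 made up 46.0 ± 10.9% of the sum in shC8 and 54.4 ± 4.71% in shCTR, and IGFBP3 32.6 ± 13.7% and 17.3 ± 6.27% (SD, n = 3 each). In shC8 2 IGFBP3 was the largest share, at 46.4%, and in each other library IGFBP6 was.

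**Figure D3:**
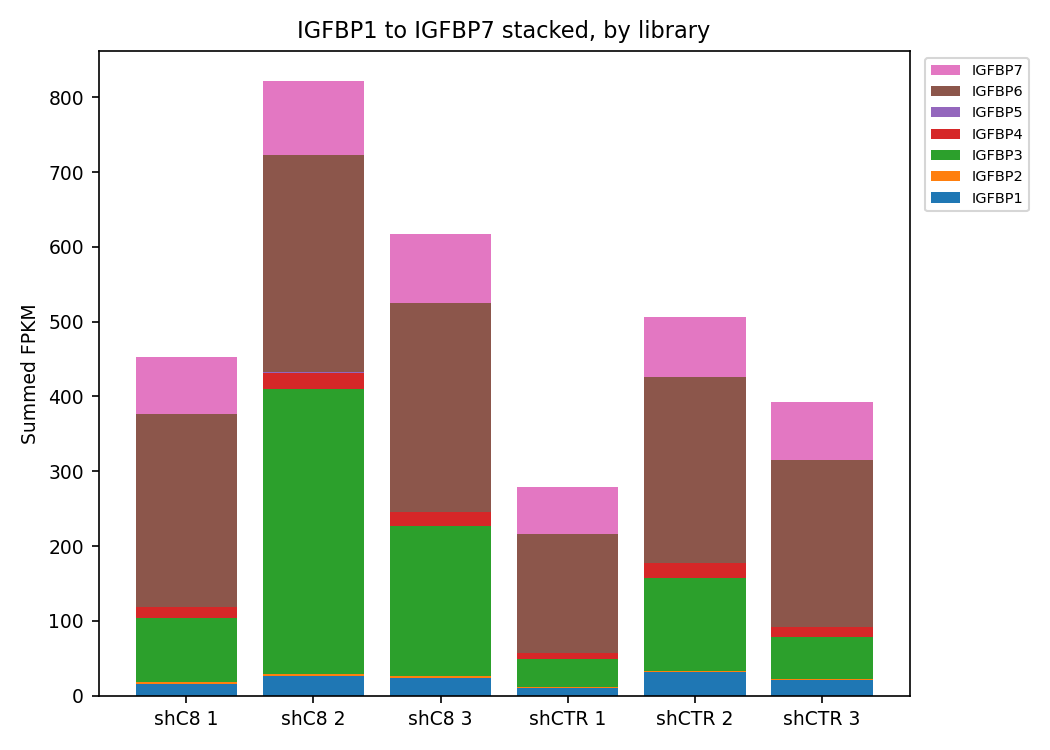
Summed FPKM of IGFBP1 to IGFBP7 in each library, stacked by gene, with the 3 shC8 libraries left of the 3 shCTR libraries. The sum lies between 453 and 821 FPKM in shC8 and between 279 and 506 FPKM in shCTR, and IGFBP3 (green) varies most, with 46.4% of the sum in shC8 2 and 13.1% in shCTR 1.

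The genes that act with the members were read from 7 lists of 90 distinct genes, of which 70 were tested. Of these 70, 4 rose, 6 fell and 60 did not pass, which is 14.3% called beside 12.1% of all tested genes, and 5 were called without shC8 3. With the replicate block 11 were higher and 14 lower, 35.7% of the 70, where 26.6% of all tested genes were called. The lower ones were 20% of the 70, beside 10.6% of all tested genes, and the higher ones 15.7%, beside 16.1%.

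Transcripts of the ligands were nearly absent. IGF2 was listed at 0 in 5 libraries and at 0.0186 FPKM in shC8 2, and IGF1 was at or under 0.0878 FPKM in every library. The receptor gene IGF1R averaged 1.45 FPKM in shC8 and 1.49 FPKM in shCTR, with a log2 change of -0.03 (limma adjusted p = 0.885). Of 8 tested ligand, receptor and adaptor genes, 1 was higher, 1 was lower and 6 did not pass (25% called, beside 12.1% of all tested genes). Their median log2 change was 0.0097, beside 0.0376 for all tested genes. GRB14, an adaptor that inhibits insulin receptor signalling, fell to 2.44 FPKM in shC8, against 7.5 FPKM in shCTR, a log2 difference of -1.31 (SE 0.106, adjusted p = 0.00132 by limma). INSR, the insulin receptor gene, had 2.69 FPKM in shC8 and 1.86 FPKM in shCTR and rose by 0.37 (SE 0.0811, limma adjusted p = 0.03). The call of INSR ended in each of the 6 fits without 1 library (limma adjusted p between 0.0577 and 0.0903) and under quantile scaling (0.0603).

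Genes that cut IGFBPs or restrain the cutting did not pass. Of 6 tested, 0 were called by limma without the block (2 at an unadjusted p under 0.05), and 5 were called with it, 2 higher and 3 lower. Of all tested genes 12.1% were called without the block. With it 26.6% were called, 16.1% higher and 10.6% lower. Their median change was -0.12. PAPPA, the pappalysin gene, averaged 9.53 FPKM in shC8 and 12.6 FPKM in shCTR (log2 change -0.38, SE 0.103, limma adjusted p = 0.054, and 0.0146 with the block). STC1, which encodes the pappalysin inhibitor stanniocalcin 1, averaged 122 FPKM in shC8 and 280 FPKM in shCTR (log2 change -1.16, SE 0.31, limma adjusted p = 0.0513, 0.0031 with the block, 0.00984 with a term for the range, 0.0423 without shCTR 3, 0.0496 with a pseudocount of 0.1 and 0.047 with a minimum mean of 5 FPKM). In the other 9 alternatives STC1 was not called (limma adjusted p up to 0.143). HTRA1, a serine protease gene, differed by 0.18 on the log2(FPKM + 1) scale without passing (SE 0.182, limma adjusted p = 0.548), and was called with the block (0.0365). Among 7 tested genes of IGFBP-related proteins, WISP1, a matricellular Wnt target also named CCN4, rose to 3.39 FPKM in shC8, against 1.11 FPKM in shCTR, by 1.05 (SE 0.245, limma adjusted p = 0.0345), and 6 did not pass. The median change of these 7 was 0.15, 14.3% were called, and with the block 2 were called higher and 3 lower. HTRA1 stands on this list and on that of the proteases, so its call with the block is counted in both. WISP1 lost its call without shC8 2, shC8 3, shCTR 1 or shCTR 3 (limma adjusted p up to 0.101) and with no filter (0.0832). Of 7 tested cell-surface partners, ITGAV and ITGA5, integrin chains that bind RGD motifs, rose by 0.48 and 0.41 (SE 0.0764 and 0.0976, limma adjusted p = 0.011 and 0.0379), and 5 did not pass. The median change of these 7 was 0.25, 28.6% were called, and with the block 4 were called higher and 1 lower. ITGA5 lost its call without the same 4 libraries (limma adjusted p up to 0.108), under median-of-ratios scaling (0.0574) and with no filter (0.0747), and ITGAV kept its call in all 14 alternatives.

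Genes of the LIN28 and let-7 axis that fell beside IGF2BP2 were HMGA2, HMGA1 and LIN28B. HMGA2 and HMGA1 encode chromatin architectural proteins of the embryo and of tumours, and LIN28B encodes a block to let-7 maturation. HMGA2 averaged 49.0 FPKM in shC8 and 86.2 FPKM in shCTR, a change of -0.82 (SE 0.137, limma adjusted p = 0.0126). HMGA1 averaged 157 FPKM in shC8 and 250 FPKM in shCTR, a change of -0.68 (SE 0.118, limma adjusted p = 0.0138). LIN28B was low, at 0.672 FPKM in shC8 and 1.54 FPKM in shCTR, a change of -0.60 (SE 0.154, limma adjusted p = 0.0462). The searched 3′ UTR of LIN28B holds both GGACAAA and CTACCTC, that of HMGA1 holds CTACCTC alone, and that of HMGA2 holds neither. Other isoforms of these genes were not searched, and the HMGA2 isoform that was read had 7421 bases of 3′ UTR. Sites in other HMGA2 isoforms would be missed, so the search cannot decide whether HMGA2 carries let-7 sites. The call of LIN28B ended without shC8 2, shC8 3, shCTR 2 or shCTR 3 (limma adjusted p up to 0.133) with a term for the range (0.0529) and with no filter (0.0785), and that of HMGA1 ended without shC8 3 (0.0565). Of 9 tested genes on this list, 3 fell, 0 rose and 6 did not pass, and the median change was -0.036. The 3 are 33.3% of the 9, where 4.94% of all tested genes were called lower, on a list chosen with results known. DICER1, which encodes the nuclease that matures microRNAs, had a change of 0.38 (SE 0.109, limma adjusted p = 0.0632) and was called with the replicate block (0.0109). With the block 1 gene of the list was higher and 4 were lower (11.1% and 44.4%, beside 16.1% and 10.6% of all tested genes). Mature microRNAs were not measured.

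Among transcripts that IGF2BPs are known to bind, HMGA2, CCND1, LIN28B and CD44 fell. These are 4 of 15 tested, or 26.7%, where 4.94% of all tested genes were called lower, on a list chosen with results known. Of the other 11, 0 rose, with a median change over the 15 of -0.033 beside 0.0376 for all tested genes. With the replicate block 4 were called lower and 1 higher (26.7% and 6.67%, beside 10.6% and 16.1% of all tested genes). The higher one was LAMB2, a laminin gene (log2 change 0.35, limma adjusted p = 0.0134 with the block and 0.116 without it). CCND1, the cyclin D1 gene, averaged 187 FPKM in shC8 and 306 FPKM in shCTR (log2 change -0.71, SE 0.0728, limma adjusted p = 0.00266), and CD44, the hyaluronan receptor gene, 269 FPKM in shC8 and 366 FPKM in shCTR (log2 change -0.45, SE 0.0764, limma adjusted p = 0.0131). The searched 3′ UTRs of CCND1 and CD44 hold neither GGACAAA nor CTACCTC. HMGA2 and LIN28B stand on both lists. Of 21 tested m6A readers, writers, erasers and IGF2BP partners, 0 were called by limma without the block (3 at an unadjusted p under 0.05). With the block 1 was called (ALKBH5, higher), and the median change was -0.017. Of all tested genes 12.1% were called without the block and 26.6% with it. The abundant partners YBX1 and PABPC1 had changes of -0.12 (limma adjusted p = 0.496) and -0.19 (limma adjusted p = 0.266).

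**Figure D4:**
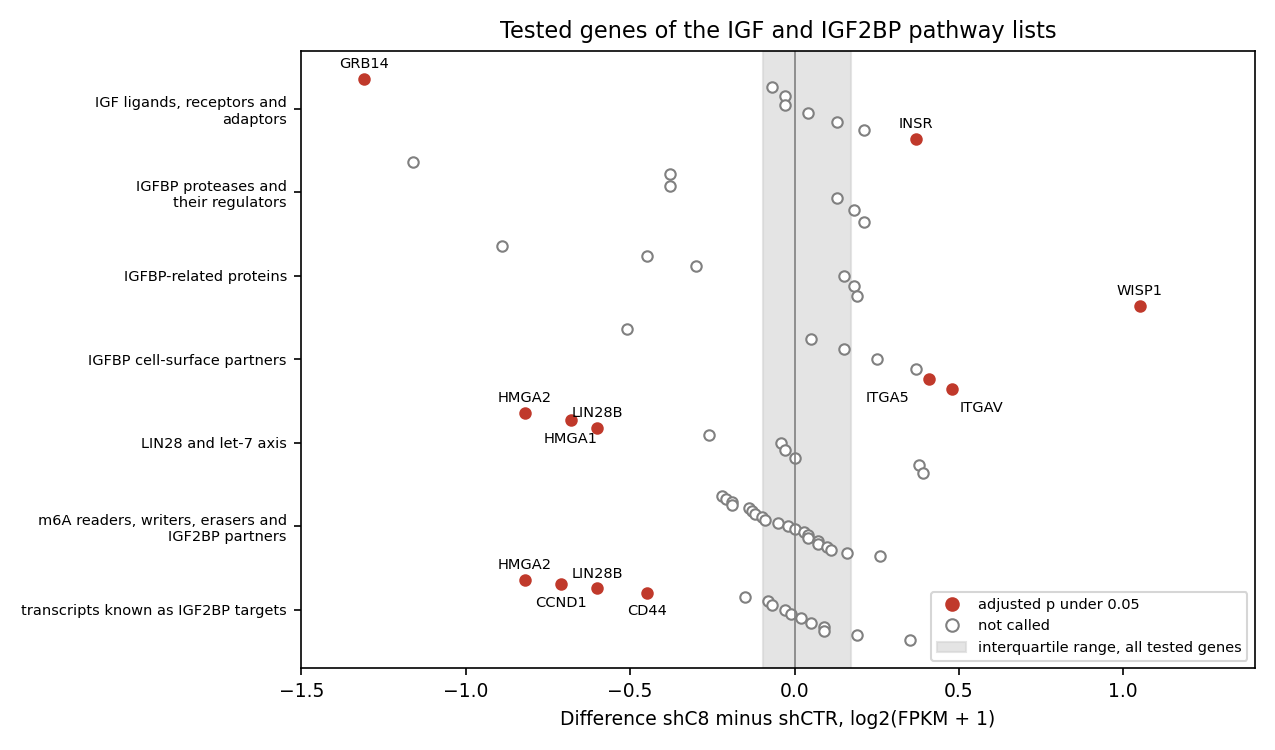
Difference of shC8 minus shCTR on the log2(FPKM + 1) scale for each tested gene of the 7 lists, 1 list per row, with genes ordered by their difference within a row. Red points with names have a limma adjusted p under 0.05, open points do not, and the grey band is the interquartile range of all 11598 tested genes. The 21 m6A and partner genes lie close to the band, and GRB14 and WISP1 lie farthest out among the called genes.

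The 3 tested genes whose profiles over the 6 libraries were nearest to that of IGF2BP2 were SVIL, FOSL1 and DMKN, with root mean square differences of 0.0505, 0.0515 and 0.0715 in log2(FPKM + 1) after each gene's own mean was subtracted. SVIL encodes the actin-binding protein supervillin, and FOSL1 an AP-1 transcription factor subunit. SVIL had 22.7, 21.2 and 19.9 FPKM in shC8 1, 2 and 3, against 42.9, 33.5 and 35.1 FPKM in shCTR 1, 2 and 3. FOSL1 had 55.1, 53.3 and 56.0 FPKM in shC8 1, 2 and 3, against 105, 79.5 and 80.7 FPKM in shCTR 1, 2 and 3. Like IGF2BP2, both were highest in shCTR 1. The searched 3′ UTR of FOSL1 holds GGACAAA and those of SVIL and DMKN do not.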

How the data were processed

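RNA of 6 U87 cultures was sequenced; per the labels' protocols, libraries were stranded and depleted of ribosomal RNA. The authors deposited 1 FPKM value for each gene symbol in each library. The submitters' processing notes name TopHat, Cufflinks, Cuffdiff and hg38, without versions. How strand was used in counting, which annotation served and whether columns were scaled further is not given in the sources used here, so reads in overlaps with antisense genes may be shared. FPKM carries no counts, so no count model or counting interval was used. All sample columns were used.

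The test was limma 3.58.1 (R 4.3.3) on log2(FPKM + 1) for genes averaging 1 FPKM or more, with a mean trend, two-sided, with Benjamini-Hochberg adjustment over all 11598 tested genes, called under 0.05. The added 1 understates changes of low genes. The series' design text calls the samples biological replicates without saying how cultures or infections differed, so p-values cover only the spread among these libraries.

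Same-numbered libraries deviated together from their group means across genes (correlations 0.397, 0.266 and 0.291), so the numbers were taken to pair them, a reading of the data, since no label says so. Other pairings were not compared. The libraries numbered 1 share a column number range, as do those numbered 2, and those numbered 3 do not, so shared number and shared range are partly confounded. Alternatives were a pseudocount of 0.1, no filter, a minimum mean of 5 FPKM, quantile and median-of-ratios scaling, the replicate block, no trend, the column number range, and each library left out. The members and lists were chosen with earlier results of these data known. Named genes were all members, CASP8, up to 4 called genes with the largest changes per list (where none was called, the 2 of highest FPKM) and the 3 nearest profiles; IGF1, IGF2, IGF1R, PAPPA, DICER1, ALKBH5 and markers were named after their values were seen, and the words GGACAAA and CTACCTC were chosen likewise. List symbols were matched through older names in RefSeq. A 3′ UTR of at least 50 bases was found for 87.2% of tested genes in GENCODE 29 (GRCh38, called hg38 by UCSC). The fit was tested on simulated data.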

Additional observations from a re-analysis of the deposited data

How the results depend on the processing

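The fall of IGF2BP2 kept its direction and its call under all 14 alternatives, between -0.747 and -0.564 (limma adjusted p between 0.00277 and 0.0454), and CASP8 did so between -1.68 and -1.48. The count of called members was 1 as reported, 6 with the replicate block and between 1 and 2 without 1 library. With the block, IGFBP2 (0.428), IGFBP3 (1.54), IGFBP4 (0.441), IGFBP6 (0.414) and IGFBP7 (0.264) became called, and the block changed no call of IGFBP1, IGF2BP2, IGF2BP3 or CASP8. IGFBP1 was -0.123 with a term for the column number range, and between -0.247 and 0.538 without 1 library; the cause was not tested. Without 1 library, IGFBP2 lay between 0.337 and 0.582, IGFBP3 between 1.03 and 2.1, IGFBP4 between 0.141 and 0.743, IGFBP6 between 0.23 and 0.544, IGFBP7 between 0.149 and 0.368, and IGF2BP3 between 0.135 and 0.302. Called list genes numbered 10 as reported, 25 with the replicate block and between 5 and 14 without 1 library. The summed IGFBP difference lay between 142 and 326 FPKM without 1 library. With a minimum mean of 5 FPKM, IGFBP2 was not tested. Median-of-ratios scaling moved the median change of all genes to 0.00265. With FPKM alone, no counting interval can be given for IGFBP5 and IGF2BP1. In the fit without the filter their SEs on the log2(FPKM + 1) scale were 0.139 and 0.0159.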
